A study of Homo sapiens with 12 samples.

Results

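Insulin and insulin-like growth factor (IGF) signalling was followed through 10 genes in HEK293 cells and in the extracellular vesicles (EVs) collected from them. The genes are the ligand gene IGF2, the receptor genes INSR, IGF1R and IGF2R, the docking protein genes IRS1, IRS2 and IRS4, and the binding protein genes IGFBP2, IGFBP4 and IGFBP5. They were taken by name, not by their values, and all 10 were found among the 57773 gene identifiers of the expression table. HEK293 is an established human embryonic kidney cell line, grown here in medium with 10% fetal bovine serum. The 12 RNA-seq libraries form 4 groups of 3, namely hypoxia EVs, normoxia EVs, hypoxia cells and normoxia cells. All 4 groups carried the same 4EC1 vectors, built with eGFP, EIF4E, YTHDF1, GBP1 and CD9 parts and delivered by lipofection for 48 h, so no library here comes from unmodified cells. The hypoxia groups then spent 24 h in a hypoxia chamber, at an oxygen level that the labels do not give. Cellular RNA came from TRIzol extraction and EV RNA from a column kit, so the kind of extraction differs with the compartment and cannot be told apart from it. The labels do not say whether replicates were separate cultures, and the p-values therefore measure only the spread between these libraries, which may be technical.

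In this pathway the secreted ligands insulin, IGF1 and IGF2 bind the receptor tyrosine kinases encoded by INSR and IGF1R, and the activated receptors phosphorylate the insulin receptor substrate (IRS) proteins, which recruit PI3-kinase and so switch on AKT. IGF2R has no kinase domain and carries IGF2 to the lysosome. The IGF-binding proteins hold IGFs outside the cell until proteases such as the pappalysins PAPPA and PAPPA2 cut them, and stanniocalcins inhibit the pappalysins. IRS4 is a docking protein with narrow expression in adult tissues that is known for its abundance in HEK293 cells.

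The deposited values are read counts divided by 1 factor per library, called normalised reads below. Total reads were 3259453 to 6129782 in hypoxia EVs, 5266244 to 7001767 in normoxia EVs, 18059381 to 19422032 in hypoxia cells and 19380437 to 23400813 in normoxia cells, so that EV values rest on far fewer reads. The genes of the vectors (EIF4E, YTHDF1 and CD9) took 19.97 to 23.2% of reads in hypoxia EVs, 21.9 to 24.4% in normoxia EVs, 6.93 to 7.28% in hypoxia cells and 5.89 to 6.56% in normoxia cells. The 7 HEK293 markers found in the table were all at 10 normalised reads or more in every group, and their sum was 7736 to 8398 in hypoxia EVs, 10810 to 16401.5 in normoxia EVs, 5409 to 5667 in hypoxia cells and 6365 to 7021 in normoxia cells. Summed blood markers stood at 222 to 280 normalised reads in hypoxia EVs, 21.4 to 142 in normoxia EVs, 16.8 to 19.1 in hypoxia cells and 15.6 to 23.1 in normoxia cells. Summed liver markers stood at 343 to 492, 61.8 to 174, 26.8 to 56.2 and 26.2 to 42.4 normalised reads in the same 4 groups, fat markers at 222 to 252, 97.5 to 137, 10.3 to 37.9 and 11.1 to 23.7, and fibroblast markers at 707 to 898, 464 to 805, 307 to 387 and 319 to 384. No marker of these lists was at 0 in all 3 libraries of a group. Genes that are scarcely read in the cells, 6599 protein-coding genes averaging no more than 20 normalised reads there, gave a density of 16.9 ± 0.561 normalised reads per kb of exon in hypoxia EVs, 7.80 ± 3.52 in normoxia EVs, 1.81 ± 0.139 in hypoxia cells and 1.44 ± 0.1201 in normoxia cells (SD, n = 3 each). This density, called the low-gene density below, marks the level at which a gene's EV value is no higher than that of genes hardly read in the cells. The normoxia EV libraries ranged from 4.79 to 11.7 on it, with replicate 3 the highest.

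IRS4 stood far above the other members in every group. IRS4 (ENSG00000133124) lies on chromosome X from 108732482 to 108736409 on the minus strand of GRCh38, with 1 block of exon sequence of 3928 bases in GENCODE 29. Per kb of exon its level was 304 ± 30.2 normalised reads in hypoxia EVs, 503 ± 165 in normoxia EVs, 1209 ± 20.7 in hypoxia cells and 2361 ± 16.7 in normoxia cells (SD, n = 3 each). Of 19263 protein-coding genes it ranked 477th, 509th, 136th and 61st per kb in these groups. Among the 3 docking protein genes IRS4 held 87.1 ± 1.65% of the reads per kb in hypoxia EVs, 89.2 ± 2.85% in normoxia EVs, 96.9 ± 0.206% in hypoxia cells and 98.5 ± 0.0287% in normoxia cells. The other docking protein genes were low: IRS1 (chromosome 2, 226731317 to 226799759, minus strand) had 25.8 ± 2.91, 28.2 ± 3.41, 23.1 ± 0.787 and 21.8 ± 0.244 normalised reads per kb in the same order of groups. IRS2 (chromosome 13, 109752698 to 109786568, minus strand) had 19.7 ± 12.5, 30.1 ± 13.1, 15.5 ± 1.58 and 14.7 ± 1.08 normalised reads per kb.

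The receptor genes IGF2R and IGF1R came next to IRS4, and INSR stood lower. IGF2R (chromosome 6, 159969099 to 160113507, plus strand) had 63.0 ± 5.93 normalised reads per kb in hypoxia EVs, 59.1 ± 6.06 in normoxia EVs, 193 ± 5.73 in hypoxia cells and 195 ± 8.78 in normoxia cells. IGF1R (chromosome 15, 98648539 to 98964530, plus strand) had 77.3 ± 4.11, 86.5 ± 12.4, 137 ± 6.75 and 133 ± 2.29 normalised reads per kb in the same groups. Of the signalling receptors IGF1R outweighed INSR: it took 61.9 ± 2.49% of the summed IGF1R and INSR reads per kb in hypoxia EVs, 68.9 ± 2.94% in normoxia EVs, 71.5 ± 4.11% in hypoxia cells and 67.7 ± 0.612% in normoxia cells. INSR (chromosome 19, 7112255 to 7294034, minus strand) had 47.8 ± 5.44, 38.7 ± 0.412, 54.9 ± 9.34 and 63.5 ± 0.697 normalised reads per kb. The ligand gene IGF2 (chromosome 11, 2129112 to 2149603, minus strand) had 26.1 ± 7.54, 32.2 ± 6.86, 17.0 ± 2.45 and 9.13 ± 1.28 normalised reads per kb, the lowest of the 10 in normoxia cells.

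Of the binding protein genes, IGFBP2 and IGFBP5 were abundant in cells and IGFBP4 was low. IGFBP2 (chromosome 2, 216632828 to 216664436, plus strand) had 36.9 ± 13.9 normalised reads per kb in hypoxia EVs, 45.2 ± 3.92 in normoxia EVs, 99.6 ± 3.49 in hypoxia cells and 108 ± 6.98 in normoxia cells. IGFBP5, its neighbour on the opposite strand (chromosome 2, 216672105 to 216695525), had 35.9 ± 10.6, 17.8 ± 4.47, 118 ± 3.67 and 80.4 ± 11.9. IGFBP5 thus took 47.7 ± 1.77% of the reads per kb of these 3 binding protein genes in hypoxia cells and 38.2 ± 4.18% in normoxia cells. IGFBP4 (chromosome 17, 40443461 to 40457731, plus strand) had 49.7 ± 6.37, 31.5 ± 4.71, 30.2 ± 9.31 and 22.2 ± 6.48 normalised reads per kb in the 4 groups.

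In normoxia cells the order of levels per kb was IRS4, IGF2R, IGF1R, IGFBP2, IGFBP5, INSR, IGFBP4, IRS1, IRS2 and IGF2, and only IGFBP4 and IRS1 overlapped as neighbours. In hypoxia cells IGFBP5 stood above IGFBP2 and IGF2 above IRS2, and the overlapping neighbours were IGFBP4 with IRS1 and IGF2 with IRS2. IRS4, IGF1R and IGF2R came first in both EV groups, each separate from the next. From IGFBP4 down to IRS2 every neighbour overlapped the next in hypoxia EVs. In normoxia EVs IGFBP2, at position 4, and IGFBP5, at position 10, were also separate from their neighbours, and those between INSR and IRS1 overlapped. Several members stood close to the low-gene density in hypoxia EVs, with IRS2 at 1.18, IRS1 at 1.53 and IGF2 at 1.56 times it on average, against 18.1 times for IRS4. In normoxia EVs these ratios were 4.91, 4.06, 4.43 and 80.1. In hypoxia EVs replicate 3 IRS2 had 18 reads and stood at 0.319 times that density.

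**Figure D1:**
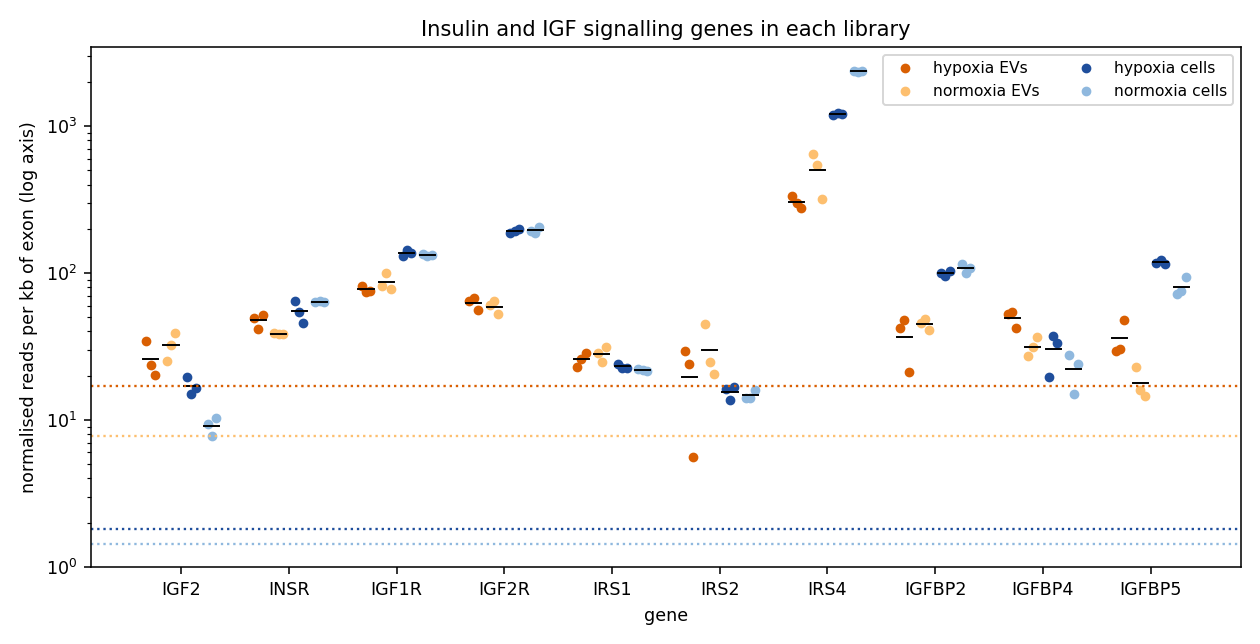
Normalised reads per kb of exon (log axis) of the 10 genes in each of the 12 libraries, with bars at group means and dotted lines at each group's mean low-gene density. IRS4 lies highest in all 4 groups, at 304 in hypoxia EVs, 503 in normoxia EVs, 1209 in hypoxia cells and 2361 in normoxia cells, while IRS1, IRS2 and IGF2 in hypoxia EVs lie near the line at 16.9.

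Some of these genes share exon bases with others, and how the authors counted reads there is unknown here. IGF2 shares 75.01% of its exon bases, of which 73.7% of the exon length lies in another GENCODE entry of the same name, 20.9% in the readthrough gene INS-IGF2 and 4.77% in the antisense gene IGF2-AS. INS-IGF2 averaged 12.8 normalised reads in hypoxia EVs, 18.7 in normoxia EVs, 0.180 in hypoxia cells and 0 in normoxia cells, and IGF2-AS averaged 67.9, 24.4, 2.84 and 1.77. IGF2 values are therefore uncertain in EVs. IRS4 shares 9.06% of its exon with the antisense gene AL035425.1, which averaged 20.2, 34.3, 75.3 and 62.2 normalised reads, far under IRS4. IGFBP5 shares 4.63% with the antisense gene AC007563.2, at 38.2, 6.11, 3.33 and 5.14 normalised reads.

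In the cells, the first comparison the design implies, IRS4 was lower in hypoxia and IGFBP5 and IGF2 were higher. IRS4 fell to 4750 ± 81.3 normalised reads in hypoxia cells, against 9274 ± 65.8 in normoxia cells, 0.512 times the level. IGFBP5 rose to 761 ± 23.6 in hypoxia cells, against 518 ± 76.4 in normoxia cells, and IGF2 rose to 119 ± 17.1, against 63.7 ± 8.97 (SD, n = 3 each). Of the 10 members 2 rose, 2 fell (IRS4 and INSR) and 6 did not pass an adjusted p of 0.05 in limma. Over all 17260 genes tested 30.4% passed, 8.01% higher and 22.4% lower, so the share of members that passed is near that of all genes. In bulk RNA, fewer cells that express a gene and less of its RNA per cell cannot be told apart.

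The ligand gene IGF2 had 137, 104 and 114 normalised reads in the hypoxia cells, against 65.4, 54.0 and 71.7 in the normoxia cells. Every hypoxia library was above every normoxia library, and the log2 fold change was 0.89 ± 0.19 (SE, adjusted p = 0.000207, limma). IGF2 encodes a growth factor made in fetal tissues and many tumours. Of the receptors, INSR had 674, 570 and 479 normalised reads in hypoxia cells, against 659, 672 and 660 in normoxia cells. Only hypoxia replicates 2 and 3 were lower, replicate 1 was the highest of the 6, and the log2 fold change was -0.22 ± 0.09 (SE, adjusted p = 0.0478, limma). The INSR call was lost in 13 of 18 alternatives, among them edgeR (adjusted p = 0.315) and DESeq2 (adjusted p = 0.421). It was also lost without hypoxia cells replicate 2 (adjusted p = 0.0838) or 3 (log2 fold change -0.10, adjusted p = 0.492), and without normoxia cells replicate 1, 2 or 3 (adjusted p = 0.0857, 0.130 and 0.0886). IGF1R had 1818, 2007 and 1910 normalised reads in hypoxia cells, against 1883, 1820 and 1861 in normoxia cells, a log2 difference of 0.04 with a 95% interval of -0.08 to 0.17. With equal totals IGF1R passed as higher in hypoxia cells (0.17, adjusted p = 0.0195, limma). IGF2R had 3347, 3445 and 3552 in hypoxia cells, against 3461, 3334 and 3646 in normoxia cells, a log2 difference of -0.01 (-0.12 to 0.10), and with equal totals without the construct genes it also passed as higher (0.13, adjusted p = 0.0372, limma). The groups overlapped for both receptors, and the intervals as deposited exclude changes of the size seen for IRS4.

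IRS4 had 4668, 4830 and 4753 normalised reads in hypoxia cells, against 9295, 9201 and 9327 in normoxia cells. The groups were widely apart and each was tight, with a log2 fold change of -0.97 ± 0.05 (SE, adjusted p = 4.5e-25, limma). It was the 138th lowest log2 fold change of the 17260 genes tested. The other docking protein genes did not follow it: IRS1 had 239, 225 and 226 normalised reads in hypoxia cells, against 220, 217 and 215 in normoxia cells (log2 difference 0.08, 95% interval -0.16 to 0.32). IRS1 was higher in every hypoxia library, as groups do not overlap in 40.3% of all genes tested, but did not pass the test (adjusted p = 0.670). IRS2, whose protein carries much of the insulin response in liver, had 131, 112 and 136 normalised reads in hypoxia cells, against 115, 115 and 130 in normoxia cells (log2 difference 0.07, -0.25 to 0.40).

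Among the binding proteins, IGFBP5 had 754, 787 and 742 normalised reads in hypoxia cells, against 464, 484 and 605 in normoxia cells, with no overlap. Its log2 fold change was 0.56 ± 0.09 (SE, adjusted p = 2.63e-07, limma). IGFBP2 had 479, 457 and 489 normalised reads in hypoxia cells, against 547, 480 and 512 in normoxia cells (log2 difference -0.11, 95% interval -0.29 to 0.07). IGFBP4 had 43.3, 82.4 and 73.4 in hypoxia cells, against 60.9, 33.1 and 52.4 in normoxia cells (0.43, -0.08 to 0.94). The IGFBP4 groups overlapped through hypoxia replicate 1, and without that library the log2 fold change was 0.71 (adjusted p = 0.0393, limma). The median log2 fold change over all genes was -0.07 as deposited and moved to 0.06 when libraries were scaled to equal totals. Relative to the median gene IRS4 stood at -0.90, IGF2 at 0.95 and IGFBP5 at 0.63 under both scalings and with TMM factors. A scaling shifts a gene and the median gene nearly alike, so these values could hardly differ between scalings and do not test them. IRS4, IGF2 and IGFBP5 kept their calls in every omission of 1 library. In a fit that shared 1 spread over all 12 libraries IRS4 still fell, while IGF2 (adjusted p = 0.226) and IGFBP5 (adjusted p = 0.431) did not pass.

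**Figure D2:**
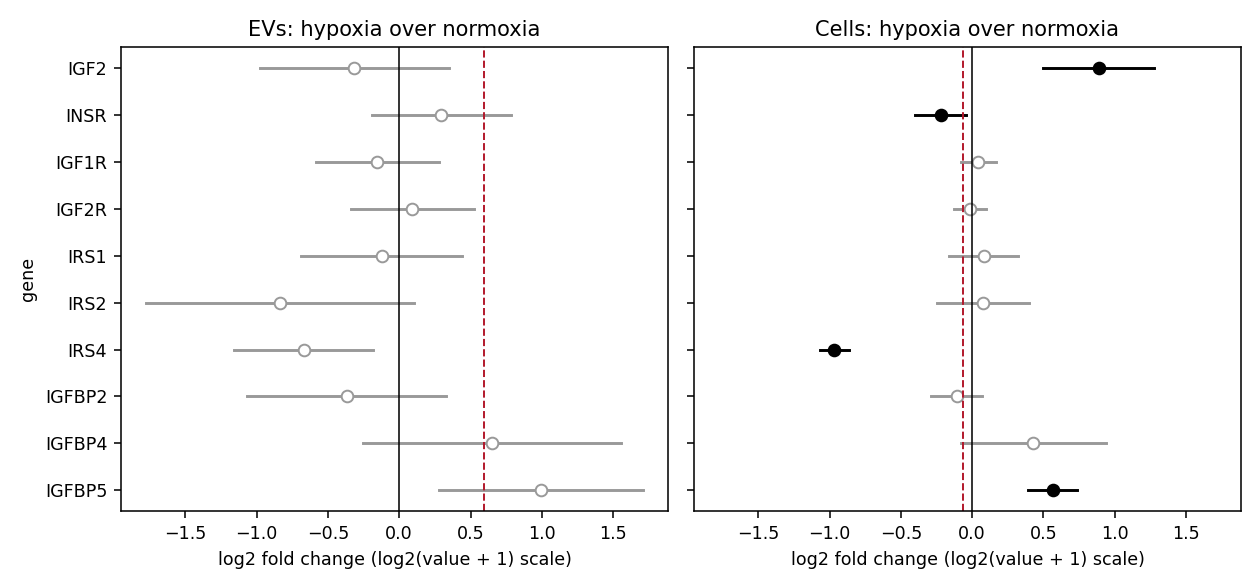
Log2 fold change of hypoxia over normoxia with its 95% interval for the 10 genes, EVs left and cells right; filled points passed an adjusted p of 0.05 in limma and the dashed line marks the median of all genes tested. In cells IRS4 lies at -0.97 and IGF2 at 0.89, and in EVs no point is filled while the median gene lies at 0.60.

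The sequences just before the transcription starts of 3 members are shown because they cover a member that fell, a member that rose and a member past no threshold. They are the 250 bases before the RefSeq start (GRCh38.p14) of IRS4, which fell in hypoxia cells, of IGFBP5, which rose, and of IGF2R, which did not pass the test and holds the most copies of CACGTG. Capitals mark matches to ACGTG or GCGTG on either strand, the core letters of the hypoxia response element. Of the 10 members 9 had an entry and IGF2 had none. IRS4 is shown at chrX:108736564-108736813 (minus strand), IGFBP5 at chr2:216695550-216695799 (minus strand) and IGF2R at chr6:159968832-159969081 (plus strand).
IRS4: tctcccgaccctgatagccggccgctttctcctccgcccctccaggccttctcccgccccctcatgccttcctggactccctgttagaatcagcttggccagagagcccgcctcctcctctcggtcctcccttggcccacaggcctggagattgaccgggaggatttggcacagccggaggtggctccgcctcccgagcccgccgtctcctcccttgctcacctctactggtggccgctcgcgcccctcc
IGFBP5: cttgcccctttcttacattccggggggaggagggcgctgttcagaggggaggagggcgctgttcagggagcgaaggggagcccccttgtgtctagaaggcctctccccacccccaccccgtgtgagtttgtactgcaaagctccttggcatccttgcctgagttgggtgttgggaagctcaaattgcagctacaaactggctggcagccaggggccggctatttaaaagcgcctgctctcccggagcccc
IGF2R: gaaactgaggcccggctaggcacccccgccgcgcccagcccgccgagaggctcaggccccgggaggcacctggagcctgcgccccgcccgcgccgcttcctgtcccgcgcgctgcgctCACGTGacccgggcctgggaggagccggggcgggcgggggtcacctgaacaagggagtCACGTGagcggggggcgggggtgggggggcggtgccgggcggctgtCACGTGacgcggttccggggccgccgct
Neither of the IRS4 and IGFBP5 windows printed holds a match, and the IGF2R window holds CACGTG 3 times, a palindrome that contains ACGTG on both strands. Counting all listed starts, 5 of the 9 members had a window with at least 1 match, among them IGF1R with 5 separate blocks. Over all 35116 RefSeq windows of this length 43.2% held a match, 6.34% held CACGTG and 0.0797% held it 3 times or more. IRS4 has a second RefSeq start, nearer to the GENCODE start given above. Its window, which is not printed because it runs into the transcript of the first start, held 2 blocks, 1 of them CACGTG. A match is a description of letters and no evidence of binding, and its absence concerns these windows alone.

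In EVs, the second comparison, no member passed the test between hypoxia and normoxia. The median gene had a log2 fold change of 0.60, and 12.3% of 27904 genes passed, 5.68% higher and 6.62% lower. In a fit of the 15260 genes that averaged 50 normalised reads or more, 1464 were higher and 2378 lower, and the median was -0.15. Of the 10 members 0 passed in limma, 2 (IRS4 and IGFBP5) had an unadjusted p under 0.05, and edgeR and DESeq2 each called 1, IRS4 lower. The low-gene density and the summed blood, liver and fat markers were higher and the summed HEK293 markers lower in hypoxia EVs than in normoxia EVs, as given above. Singly, of the HEK293 markers only NEFM passed (-0.83, adjusted p = 0.0317, limma), and PAX2 went the other way (0.38, not past the threshold). The part of the density and the markers in these values was not tested. With equal totals INSR (0.86, adjusted p = 0.0179), IGF2R (0.66, adjusted p = 0.0162) and IGFBP5 (1.56, adjusted p = 0.0120) passed as higher in limma. In that setting the median of all genes tested was 1.13, with 4255 genes higher and 189 lower. Relative to that median INSR stood at -0.27, IGF2R at -0.47 and IGFBP5 at 0.43.

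IRS4 had 1318, 1186 and 1082 normalised reads in hypoxia EVs, against 2521, 2146 and 1261 in normoxia EVs. Normoxia replicate 3 lay within the range of the hypoxia libraries and the other 2 far above it. The log2 difference was -0.67 ± 0.24 (SE, adjusted p = 0.0597, limma), with edgeR at -0.76 (adjusted p = 0.0311) and DESeq2 at -0.83 (adjusted p = 0.0133). Without normoxia EVs replicate 3, the normoxia library with the highest low-gene density, limma gave -0.96 (adjusted p = 0.00154), and without normoxia EVs replicate 1 it gave -0.46 (adjusted p = 0.215). The log2 difference was -0.10 with equal totals. Relative to the median of all genes tested it was -1.27 as deposited and -1.23 with equal totals, a distance that a scaling could hardly change. That median was 0.60 as deposited, and -0.15 in a fit of the 15260 genes that averaged 50 normalised reads or more.

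IGFBP5 had 188, 195 and 310 normalised reads in hypoxia EVs, against 147, 103 and 93.8 in normoxia EVs. The groups did not overlap, as for 37.9% of genes tested, and the log2 difference was 0.99 ± 0.35 (SE, adjusted p = 0.0578, limma). Relative to the median of all genes tested this was 0.40. IGFBP5 averaged 2.11 times the low-gene density in hypoxia EVs and 2.78 times in normoxia EVs. Its antisense neighbour was also higher in hypoxia EVs, as given above. IGFBP4 had 116, 119 and 93.3 in hypoxia EVs, against 59.5, 68.5 and 80.1 in normoxia EVs, again with no overlap, at a log2 difference of 0.65 (95% interval -0.25 to 1.56). That was 0.06 relative to the median gene, and IGFBP4 averaged 2.95 times the low-gene density in hypoxia EVs and 4.42 times in normoxia EVs. IGFBP2 had 200.4, 227 and 101 in hypoxia EVs, against 219, 232 and 195 in normoxia EVs (-0.37, -1.07 to 0.33).

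INSR had 517, 435 and 545 normalised reads in hypoxia EVs, against 409, 404 and 401 in normoxia EVs, separate groups with a log2 difference of 0.30 (95% interval -0.19 to 0.79). IGF1R and IGF2R differed by -0.15 (-0.58 to 0.28) and 0.09 (-0.34 to 0.53), with overlapping groups. IGF2 had 242, 164 and 141 in hypoxia EVs, against 176, 227 and 272 in normoxia EVs (-0.32, -0.98 to 0.35), so the groups overlapped. IRS1 differed by -0.12 (-0.69 to 0.44), and IRS2 had 240, 195 and 45.4 in hypoxia EVs, against 366, 202 and 166 in normoxia EVs (-0.83, -1.78 to 0.11). The low IRS2 value belongs to hypoxia EVs replicate 3, and without it the log2 difference was -0.09 (adjusted p = 0.881, limma).

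Between compartments, RNA of most members was lower in EVs than in cells. With both conditions averaged, 6 of 10 members were lower in EVs, 2 were higher and 2 did not pass. Of 24171 genes 74.9% passed, 43.1% higher and 31.8% lower, and the median log2 fold change was 0.32. In a fit of the 13674 genes that averaged 50 normalised reads or more, 3667 were higher and 6999 lower, with a median of -0.41. Most genes called in that fit were thus lower in EVs, as most members were. IRS4 averaged 1586 normalised reads in the 6 EV libraries and 7012 in the 6 cell libraries, a log2 fold change of -2.14 ± 0.13 (SE, adjusted p = 3.23e-11, limma). The EV level of IRS4 was 0.252 times the cell level in hypoxia and 0.213 times in normoxia, and every EV library lay under every cell library. IGFBP5 (-1.97 ± 0.15), IGF2R (-1.67 ± 0.10) and IGFBP2 (-1.38 ± 0.17) followed, with no overlap of the groups for any of these, where 41.2% of all genes had none. IGF1R was lower by a smaller margin, -0.73 ± 0.10 (adjusted p = 1.48e-06, limma), and INSR by -0.45 ± 0.11 (adjusted p = 0.00145, limma) with overlapping groups. INSR was no longer called when libraries were scaled to equal totals without the construct genes (-0.14, adjusted p = 0.273).

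IGF2 and IGFBP4 were the members called higher in EVs. IGF2 averaged 204 normalised reads in EVs and 91.1 in cells, a log2 fold change of 1.19 ± 0.19 (SE, adjusted p = 1.27e-05, limma). It was 1.54 times the cell level in hypoxia and 3.53 times in normoxia. IGFBP4 averaged 89.4 in EVs and 57.6 in cells (0.64 ± 0.25, adjusted p = 0.0236, limma), and its call was lost without hypoxia cells replicate 1 (0.51, adjusted p = 0.0827) or normoxia cells replicate 2 (0.52, adjusted p = 0.0757). The low-gene density times exon length was also taken off each library, with values under 0 set to 0. IGF2 then fell short of the threshold at 0.28 (adjusted p = 0.534) and IGFBP4 at 0.24 (adjusted p = 0.409), whereas IRS4 stayed at -2.20 (adjusted p = 1.75e-06, limma). The density is higher in EVs, so this step lowers EV against cell values in general. Over all genes tested the median became -0.52, with 4911 higher and 10113 lower, so these moves follow those of most genes.

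IRS1 and IRS2 were not called as deposited, at 0.26 (95% interval -0.02 to 0.53) and 0.49 (-0.14 to 1.12). With the low-gene density taken off, IRS1 turned to -0.65 (adjusted p = 0.00257, limma) and IRS2 to -1.06 (adjusted p = 0.381). In hypoxia EVs replicate 3 the subtraction left IRS2 at -96.7 normalised reads, which was set to 0 and pulls its value down. Single libraries also decided these calls: IRS2 passed without hypoxia EVs replicate 3 (0.86, adjusted p = 0.000861) and IRS1 without normoxia EVs replicate 2 (0.30, adjusted p = 0.0411). IRS1 had 113 to 170 reads in the EV libraries, against 394 to 447 reads in the cell libraries.

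**Figure D3:**
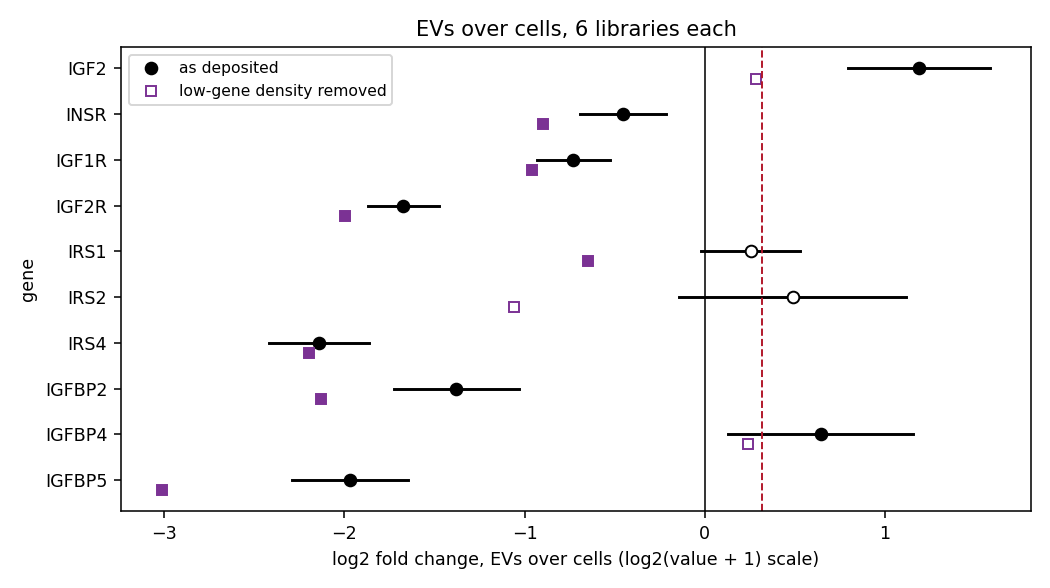
Log2 fold change of EVs over cells (6 libraries each) with its 95% interval for the 10 genes. Squares give the value after the low-gene density was taken off, with values under 0 set to 0. Filled symbols passed an adjusted p of 0.05 and the dashed line marks the median gene as deposited (0.32), which became -0.52 with the density taken off. IRS4 keeps its place (-2.14 and -2.20), IGF2 moves to 0.28 from 1.19, and IRS1 changes side of 0.

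The difference between the hypoxia response in EVs and that in cells was tested as an interaction over all 12 libraries, where 2.31% of 24171 genes passed, 0.443% higher and 1.87% lower. Of the 10 members 0 passed in limma, 2 (IGF2 and INSR) had an unadjusted p under 0.05, edgeR called 0 and DESeq2 called 1. IGF2, higher in hypoxia in the cells, gave the largest departure, -1.20 ± 0.38 (SE, adjusted p = 0.0887, limma), and -1.17 (adjusted p = 0.0257) in DESeq2. INSR differed by 0.52 (95% interval 0.04 to 1.00, adjusted p = 0.200). For IRS4 the EV response was 0.30 above the cell response on the log2 scale with an interval of -0.26 to 0.85, which holds 0. With equal totals IRS4 (0.74, adjusted p = 0.0279), INSR (0.96, adjusted p = 0.0333) and IGF2R (0.55, adjusted p = 0.0427) passed. The median of all genes tested was 0.66 in that setting. Relative to it IRS4 stood at 0.07, INSR at 0.30 and IGF2R at -0.12.

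The genes whose values were most like those of IRS4 over the 12 libraries, among 10259 protein-coding genes that averaged 100 normalised reads or more, were PABPC4, KCTD12, AMOT, CCT5 and UCK2, with Pearson r of 0.997, 0.996, 0.996, 0.996 and 0.995 on log2 values. PABPC4, a cytoplasmic poly(A)-binding protein gene, averaged 433 normalised reads in hypoxia EVs, 631 in normoxia EVs, 1431 in hypoxia cells and 2373 in normoxia cells. AMOT, the gene of the junction protein angiomotin, averaged 1642, 2892, 7963 and 13821. The libraries form EV and cell clusters, so r is a description with no test. Among members r with IRS4 was 0.918 for IGF2R, 0.917 for IGF1R and 0.914 for IGFBP2. These ranked only 2581st, 2591st and 2686th by r, so values of this size are common among the genes compared. For INSR r was 0.724, for IGFBP5 0.721, for IRS2 -0.159, for IRS1 -0.753 and for IGF2 -0.869.

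Around the members, 59 further genes of the pathway were followed in 5 lists. In cells 55 of them were tested, and 6 rose, 10 fell and 39 did not pass in hypoxia, with a median log2 fold change of -0.05, against -0.07 over all genes. Over all genes 30.4% passed, 8.01% higher and 22.4% lower, so the share that passed is near the background. The list of other ligands, binding proteins and proteases held the largest responses, with 2 of 11 genes up and 1 down. STC2 rose to 1948 ± 8.96 normalised reads in hypoxia cells, against 791 ± 17.9 in normoxia cells (log2 fold change 1.298, adjusted p = 7.42e-26, limma), and STC1 rose by 1.25 (adjusted p = 5.21e-08). Both encode stanniocalcins. PCSK6, a proprotein convertase gene, fell by 0.27, a call lost without hypoxia cells replicate 2 (-0.22, adjusted p = 0.0593). The other ligand genes were hardly read, with IGF1 at 15.0 ± 5.31 in hypoxia cells and 7.54 ± 2.75 in normoxia cells, and INS at 1.03 and 0.

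Of the IGF2 mRNA-binding proteins and H19, the non-coding neighbour of IGF2, 2 of 4 fell in hypoxia cells. These were IGF2BP2 (-0.39, adjusted p = 7.38e-07, limma) and IGF2BP1 (-0.34, adjusted p = 8.03e-07), RNA-binding proteins named for IGF2 mRNA. H19 had 23.8 ± 5.03 normalised reads in hypoxia cells and 11.6 ± 4.25 in normoxia cells and did not pass. Of 16 receptor-proximal genes 2 rose and 2 fell. DOK4, a docking protein gene, rose by 0.46 (adjusted p = 0.00481), and GRB14, whose protein inhibits the insulin receptor, fell by 0.68 (adjusted p = 0.00870, and 0.128 without hypoxia cells replicate 1). The phosphatase gene PTPN1 fell by 0.20 and the scaffold gene GAB2 rose by 0.38. Each of these 2 calls was lost in 4 of 6 omissions, with adjusted p up to 0.201 for PTPN1 (without normoxia cells replicate 3) and 0.365 for GAB2 (without normoxia cells replicate 2).

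Of 13 genes of the PI3-kinase and AKT arm 1 rose and 1 fell in hypoxia cells. PIK3CA, a catalytic subunit of PI3-kinase, fell by 0.40 (adjusted p = 0.00246, limma), and INPPL1, a lipid phosphatase gene, rose by 0.18 (adjusted p = 0.0224, and 0.0946 without hypoxia cells replicate 2 and 0.0615 without normoxia cells replicate 1). Of the 11 genes listed downstream of AKT 1 rose and 4 fell. RPTOR and MTOR, parts of the growth-controlling mTOR complex, fell by 0.31 and 0.24, and TBC1D4, a regulator of glucose transporter traffic, fell by 0.29 (adjusted p = 0.000636, 0.000822 and 0.000102). FOXO3, a transcription factor that AKT restrains, rose by 0.21 (adjusted p = 0.0184), a call lost in 4 of 6 omissions, with adjusted p up to 0.112 without normoxia cells replicate 1. With equal totals PCSK6 (adjusted p = 0.173), PTPN1 (0.510), PIK3CA (0.0535) and MTOR (0.109) did not pass. Of the further genes named as rising or falling in cells, STC2 alone kept its call in the fit that shared 1 spread over all 12 libraries. Over all genes that fit called 59 higher and 25 lower.

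In EVs 2 of 57 further genes rose, 6 fell and 49 did not pass in hypoxia, with a median log2 fold change of -0.25, against 0.60 over all genes. Over the 15260 genes that averaged 50 normalised reads or more, the median was -0.15. The share that passed is near the 12.3% of all genes, where 5.68% were higher and 6.62% lower. The genes that rose were pappalysins. PAPPA2 had 363 ± 143 normalised reads in hypoxia EVs, against 96.8 ± 75.2 in normoxia EVs (2.20, adjusted p = 0.0148, limma), and PAPPA had 137 ± 8.13, against 52.4 ± 13.1 (1.39, adjusted p = 0.0449). PAPPA averaged 0.700 times the low-gene density in hypoxia EVs and 0.617 times in normoxia EVs, so it stood under that density in both. PAPPA2 averaged 1.95 and 1.02 times it. With the low-gene density taken off and values under 0 set to 0, PAPPA2 stood at 4.06 and PAPPA at 0. Every EV library of PAPPA was set to 0 there, so its value is no measured change. The lowest normoxia EV library of PAPPA2, at 0.50 times the density, was also set to 0. In that fit 0 of 27036 genes passed in limma and 6479 had an unadjusted p under 0.05, so the loss of a call there says nothing about a single gene. The genes that fell were AKT1 (-0.86, adjusted p = 0.0220), IGF2BP2 (-0.78, adjusted p = 0.0291), PTPN11 (-0.78, adjusted p = 0.0295), SOCS1 (-1.54, adjusted p = 0.0358), INPPL1 (-0.69, adjusted p = 0.0450) and FOXO3 (-0.69, adjusted p = 0.0488). Each of these 8 calls was lost in at least 2 of the 6 omissions of 1 library, with adjusted p up to 0.105 for PAPPA2 and 0.183 for INPPL1. With equal totals none of the 6 genes that fell passed, with log2 differences of -0.98 for SOCS1, -0.30 for AKT1 and -0.12 for INPPL1.

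Between compartments 15 of the 57 genes were higher in EVs, 34 lower and 8 did not pass, where 43.1% of all genes were higher and 31.8% lower. Of the 13674 genes that averaged 50 normalised reads or more, 3667 were higher and 6999 lower. Every one of the 11 genes listed downstream of AKT had a negative value and 9 passed, among them GSK3B (-1.82), a kinase gene. RICTOR (-2.54), in the same list, encodes a subunit of an mTOR complex that itself phosphorylates AKT. In the PI3-kinase and AKT arm 11 of 13 were lower, among them PIK3CB (-2.01), another catalytic subunit gene of PI3-kinase. Of the receptor-proximal genes 9 of 16 were lower, with SOS2 at -2.32 and PTPN11 at -2.06, and 5 were higher. The ligand, binding protein and protease list ran the other way, with 7 of 13 higher and 2 lower. PAPPA2 (3.11), IGFBP6 (2.72), IGFALS (2.12) and PAPPA (1.67) had the smallest p in it. All 4 had under 30 normalised reads on average in cells. With the low-gene density taken off PAPPA2 (3.99, adjusted p = 0.0102) and IGFBP6 (2.75, adjusted p = 0.00113) still passed and IGFALS did not (1.02, adjusted p = 0.284). PAPPA turned to -2.62, but its EV values lay under the density and were set to 0, so this is no measured reversal.

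**Figure D4:**
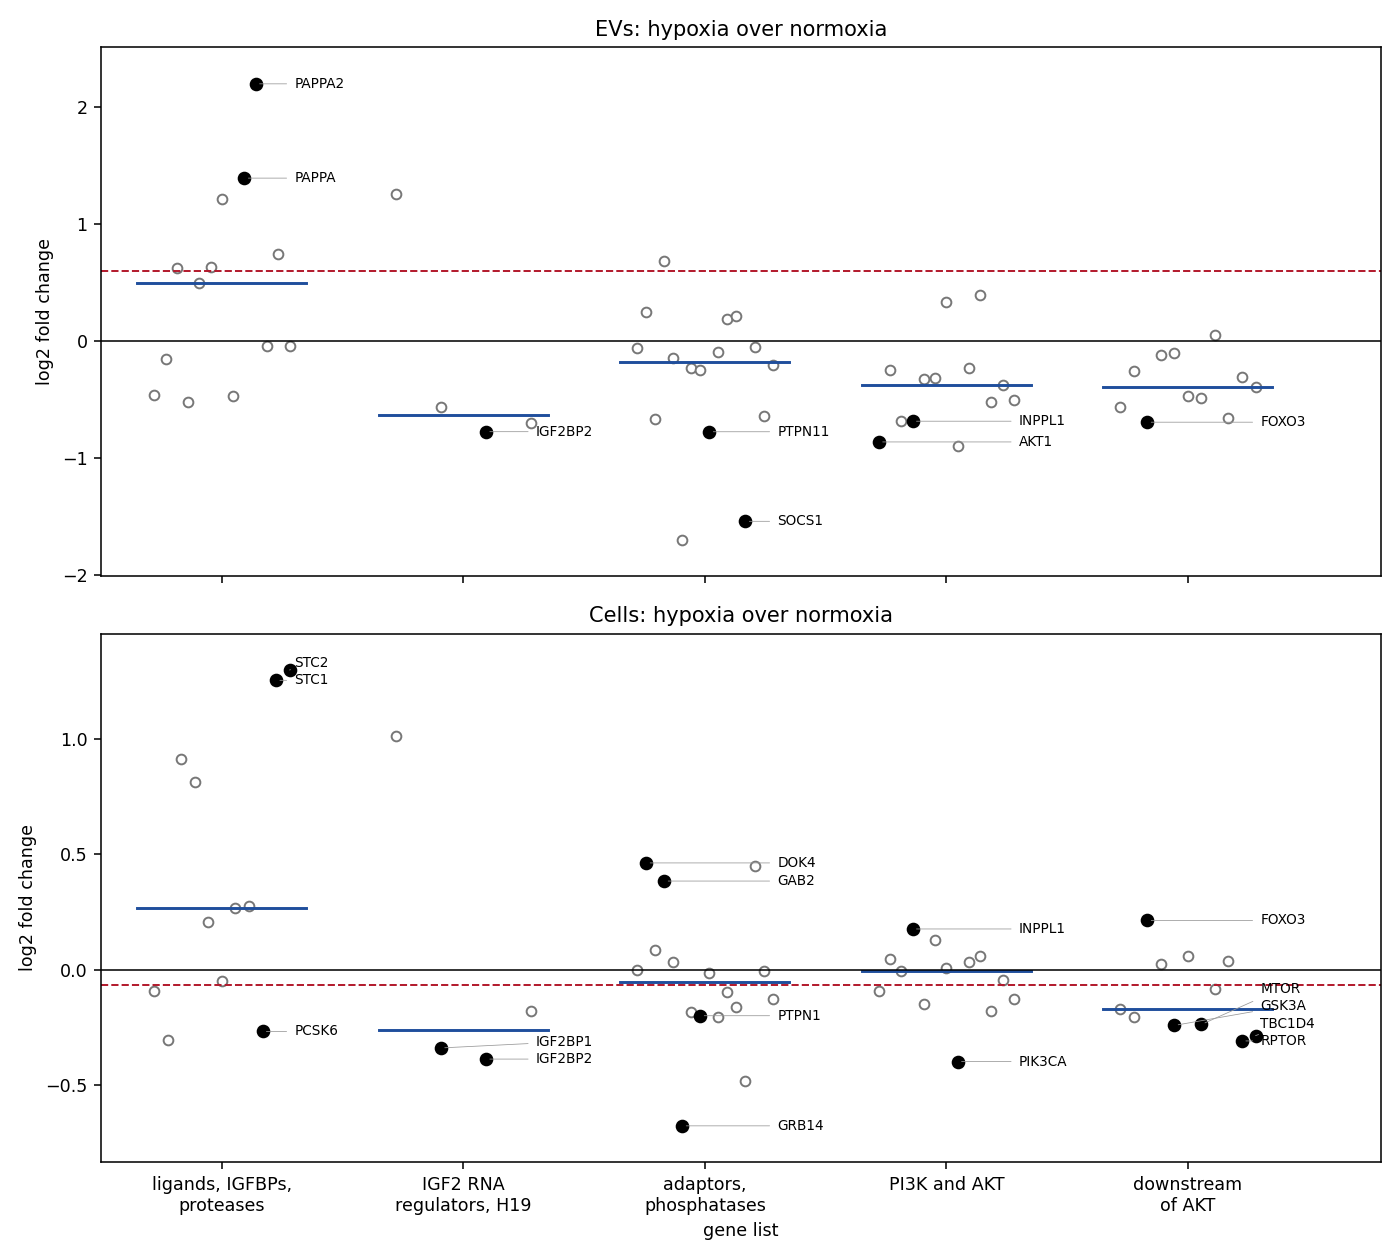
Log2 fold change of hypoxia over normoxia for the further pathway genes in 5 lists, EVs above and cells below; filled and labelled points passed an adjusted p of 0.05 in limma, short lines are list medians and the dashed line is the median of all genes tested. STC1 and STC2 stand highest in cells (1.25 and 1.298) and PAPPA2 in EVs (2.20).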

How the data were processed

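Long-RNA libraries were made with a stranded total RNA kit, per the labels' protocols. Tools named in the submitters' processing notes are Bowtie 0.12.2 and DESeq2 1.30.1, with the builds hg38 and GRCh38. Neither the counting rule, nor its use of strand, nor the annotation is stated in the labels. The deposited signal values are read counts that the authors divided by 1 factor per library. Dividing each library by its smallest step gave whole reads, within 0.01, for 100% of values. A count of 3 reads equals 5.38 normalised reads on average in hypoxia EVs, 6.13 in normoxia EVs, 1.58 in hypoxia cells and 1.54 in normoxia cells, and this covers counting error only. Of 57773 gene identifiers 52338 matched GENCODE 29 (GRCh38), which gave names, exon lengths and coordinates. Promoter sequences come from RefSeq (GRCh38.p14).

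Tests used limma 3.58.1 (R 4.3.3) with a mean trend on log2(value + 1), keeping genes that averaged 10 or more normalised reads over the libraries fitted. Each gene's spread was drawn toward that trend over all genes fitted. A standard error, interval or p-value from limma therefore does not rest on that gene's own spread alone. A fold change is on the log2(value + 1) scale, which understates changes of low genes. P-values were adjusted by Benjamini-Hochberg over all genes tested, with a threshold of 0.05. Hypoxia was tested within each compartment, EVs against cells and the interaction in 1 model of 4 groups. The 2 hypoxia comparisons share no library, but the compartment and interaction comparisons reuse all of them. edgeR 4.0.16 and DESeq2 1.42.0 on the recovered reads were alternatives, and the fits were tested on simulated data. Replicates of a group differed by more than sampling noise in all 12 pairs (chi-square per degree of freedom 5.27 to 14.8). The labels give no sequencing batch. All 10 members are described. Of each further list up to 4 genes past the threshold were named, those with the smallest p in that comparison. Some genes of these lists are not reported here by name. The members, lists and tests were chosen with earlier results of these data known.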

Additional observations from a re-analysis of the deposited data

Results flagged for a closer look

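None of the 10 members had a hypoxia response that passed the test of a difference between EVs and cells, and 4 of the 57 further pathway genes tested did, all lower, where 2.31% of all genes passed. STC2, a stanniocalcin gene, had an EV response 1.34 below its cell response on the log2 scale (-1.34 ± 0.22, SE, adjusted p = 0.00574, limma). Its values were 935 ± 76.7 normalised reads in hypoxia EVs and 974 ± 196 in normoxia EVs, and 1948 ± 8.96 in hypoxia cells and 791 ± 17.9 in normoxia cells (SD, n = 3 each), and the call held without any 1 of the 12 libraries. PTPN11, a phosphatase gene that acts beside the receptors, differed by -0.76 (adjusted p = 0.0404), with 583 ± 30.3 in hypoxia EVs and 1003 ± 122.8 in normoxia EVs, and 3172 ± 83.1 in hypoxia cells and 3201 ± 107 in normoxia cells. INPPL1 differed by -0.86 (adjusted p = 0.0446) and FOXO3 by -0.91 (adjusted p = 0.0467). The PTPN11 call was lost in 10 of 12 omissions of 1 library and those of INPPL1 and FOXO3 in 11 of 12, with adjusted p up to 0.141, 0.138 and 0.150, and all 3 were lost with equal totals and with no filter. The low-gene density also moved with hypoxia in EVs, and its part in these differences was not tested.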

How the results depend on the processing

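In cells the count of members lower, 2 as reported, was 1 with no filter, TMM factors, either scaling to equal totals, edgeR, DESeq2, the low-gene density removed or a fit of all 12 libraries, because INSR was lost. It ran from 1 to 2 when 1 library was left out. The count higher, 2, was 3 with equal totals (IGF1R gained), 4 without construct genes (IGF1R and IGF2R gained), 2 to 3 in the omissions and 0 in the fit of all 12 libraries. In EVs the count higher, 0, was 1 with a pseudocount of 5, a filter at 50 or the fit of all 12 libraries, and 3 with either equal-totals scaling. The count lower, 0, was 1 with a pseudocount of 5, a filter at 50, TMM factors, edgeR, DESeq2 or the fit of all 12 libraries, and 0 to 1 when 1 library was left out. Between compartments the count higher, 2, was 1 with TMM factors, edgeR or array weights, 4 with equal totals without construct genes or DESeq2, 0 with the low-gene density removed, and 1 to 3 in the omissions. For the interaction the count higher, 0, was 3 with equal totals and 2 without construct genes, and the count lower, 0, was 1 with DESeq2 and with the low-gene density removed. The causes of these moves were not tested beyond what the settings change.

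Some log2 values changed sign. In cells IGF2R turned to 0.0690 with TMM factors, 0.0686 with edgeR, 0.0725 with DESeq2, 0.11 with equal totals and 0.13 without construct genes (adjusted p = 0.0372, a call), and ran from -0.0433 to 0.0211 when 1 library was left out. IGFBP2 turned to 0.0162 and 0.0310 with the equal-totals scalings. In EVs the 2 equal-totals scalings gave IRS1 0.44 and 0.41, IGF1R 0.41 and 0.38, IGF2 0.25 and 0.22, and IGFBP2 0.20 and 0.16. The median of all genes tested was 1.13 and 1.10 in these 2 settings. IGF2R turned to -0.0136 with DESeq2, and with the low-gene density removed INSR turned to -0.00959 and IGF2R to -0.15. Between compartments IGF2BP2 turned to 0.0481 with equal totals without construct genes, and removal of the density turned IRS1 to -0.65, IRS2 to -1.06 and PAPPA to -2.62. Values under 0 were set to 0 in that removal, which covers the EV values of PAPPA and IRS2 in hypoxia EVs replicate 3. For the interaction the 2 equal-totals scalings gave IRS1 0.24 and 0.19, IGF1R 0.25 and 0.20, and IGFBP2 0.18 and 0.13. The median of all genes tested was then 0.66 and 0.63. IGF2R turned to -0.13 with the density removed, and in the omissions IGFBP2 ran from -0.48 to 0.0970 (without hypoxia EVs replicate 3) and IGFBP4 from -0.0531 (without hypoxia cells replicate 1) to 0.48.

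Correlations between samples of the same replicate number ran from -0.142 to 0.0897. They gave no sign of pairing, but with 3 samples a group they cannot exclude it. With the replicate block 1 member was higher in EVs (IGFBP5, 0.99, adjusted p = 0.0423) and 1 lower (IRS4, -0.67, adjusted p = 0.0123), and over all genes the EV calls were 2776 higher and 2633 lower, against 1586 and 1846. The block changed no call of a member in the other comparisons, and of the further genes it ended the interaction calls of PTPN11, INPPL1 and FOXO3 (adjusted p = 0.0665, 0.0594 and 0.0669). Over all genes the EV calls also moved to 4255 higher and 189 lower with equal totals, to 0 and 0 with the density removed (6479 genes with an unadjusted p under 0.05), and to 6144 and 3934 without normoxia EVs replicate 3. The cell calls of 1383 higher and 3871 lower became 1916 and 2629 with TMM factors and 59 and 25 in the fit of all 12 libraries.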
